A study of Mus musculus with 2 samples.

Results

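The levels of 10 genes of the cortical interneuron lineage, Lhx6, Sox6, Satb1, Maf, Nxph1, Dlx1, Dlx6os1, Erbb4, Adarb2 and Prox1, were followed in single nuclei of the injured mouse cortex. The genes were chosen by name from the 31053 genes common to the count matrices of both libraries, and all 10 had UMIs. A UMI (unique molecular identifier) tags 1 captured molecule, so a count of UMIs is a count of molecules. Nuclei came from the ipsilateral cerebral cortex after mild traumatic brain injury (mTBI), 7 days post injury (dpi), from mice over 7 weeks old with 1 copy each of Atf3-CreER and the Sun1-sfGFP reporter (genotype Atf3-CreER:+/wt; SUN-SfGFP:+/wt). Tamoxifen was given at 4 and 5 dpi, which marks the nuclear envelope with GFP in cells that use the Atf3 gene at that time, and nuclei positive for GFP and the DNA dye DRAQ5 were sorted. There were 2 libraries, 1 from a pool of 4 males and 1 from a pool of 4 females, both of the same genotype, injury and time. For the pool of females, 1 public label reads male, whereas the sample's name and the deposited table both read F, and the name was followed.

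The design limits the comparisons in several ways. Both groups carried the reporter and were injured, and no uninjured nuclei were analysed here, so values describe nuclei within the injured, sorted population. Capture depended on the Atf3 promoter and on the days of tamoxifen, animals within a pool cannot be told apart, and the n of 2 is a pool of each sex, so that sex, pool and sequencing depth cannot be separated. The male library had 4003 labelled nuclei with a median of 1742 UMIs, and the female library 4168 with a median of 3710 UMIs, and 1 barcode was shared between them. Cell type labels are those of the deposited table: 685 nuclei with an inhibitory label, 1895 with an excitatory label, and 395 labelled Unknown. The inhibitory nuclei include 4 male and 7 female nuclei labelled Sncg, and the excitatory nuclei 7 L5/6 NP and 1 L6b nuclei of the female library. These small labels entered counts, shares and marker sums of all inhibitory or all excitatory nuclei, but not the tested comparisons. No doublet caller was run, and the deepest nuclei were left out as an alternative. Levels are CPM, the UMIs of a gene per 1000000 UMIs of all nuclei of that label and library. In summed nuclei, fewer cells that use a gene and less RNA per cell cannot be told apart.

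Cortical interneurons use GABA as transmitter and are born in the ventral forebrain, outside the cortex. Those with the Pvalb and Sst labels come mostly from the medial ganglionic eminence (MGE), where the LIM homeodomain factor Lhx6 and, downstream of it, Sox6 and Satb1 set their migration and identity, and where the bZIP factor Maf acts as well. Those with the Vip label, and many with the Lamp5 label, come from the caudal ganglionic eminence (CGE), where the homeodomain factor Prox1 acts and Adarb2 is a marker. Dlx1 belongs to a family of homeodomain factors shared by GABAergic lineages, Dlx6os1 (Evf2) is a long non-coding RNA from the Dlx5 and Dlx6 locus, Erbb4 is the receptor tyrosine kinase for neuregulins, and Nxph1 is a secreted ligand of alpha-neurexins.

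The labels were checked against their defining genes. Gad1, an enzyme of GABA synthesis, was at 99.8 CPM or more in all 8 inhibitory sums (4 labels, 2 libraries) and at 65.3 CPM or less in all 12 excitatory sums. Vip itself was at 146 and 72.2 CPM (male and female library) in nuclei labelled Vip, and Lamp5 at 49.9 and 50.9 CPM in nuclei labelled Lamp5. In contrast, Pvalb was at 1.58 and 0.516 CPM in nuclei labelled Pvalb, and Sst at 3.77 and 0 CPM in nuclei labelled Sst, so the transcripts that give these labels their names were at or near 0. The authors set the labels from the same counts, by likeness to a reference, so the comparisons between labels describe groups that the members may have helped to define, and their p-values measure only the spread between 2 libraries.

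Positions are those of GRCm38 (GENCODE vM21). Lhx6 (ENSMUSG00000026890) is at chr2:36081953-36105408 on the minus strand and is 23.5 kb long, Adarb2 (ENSMUSG00000052551) is at chr13:8202866-8768747 on the plus strand and is 566 kb long, Erbb4 (ENSMUSG00000062209) is at chr1:68032186-69108059 on the minus strand and is 1076 kb long, and Dlx6os1 (ENSMUSG00000090063) is at chr6:6820189-6871592 on the minus strand and overlaps Dlx6 on the other strand. Dlx1, Sox6 and Prox1 also overlap an antisense gene (Dlx1as, Sox6os and Prox1os). Genes on the other strand overlap Adarb2 (Gm10357 and Gm48260), Maf (Gm15655) and Satb1 (Gm6934) as well. Reads were counted on a pre-mRNA reference, introns included, so long genes had more sequence to capture and levels are compared between nuclei within a gene, not between genes. The 250 bases before the start of 4 members are shown, since the results below turn on them: Lhx6 and Adarb2 mark the opposed lineages, and Erbb4 and Dlx6os1 differed with Atf3. They are RefSeq promoters on GRCm38.p6, written 5′ to 3′ on the strand of the gene, and capitals mark TAATTA (the core bound by many homeodomain factors), TGANTCA (the AP-1 motif of bZIP factors) or TGACGTCA (the CRE motif), searched on both strands, which for these letters are the same word, with no overlap between matches.
Lhx6 promoter, chr2:36105409-36105658, minus strand: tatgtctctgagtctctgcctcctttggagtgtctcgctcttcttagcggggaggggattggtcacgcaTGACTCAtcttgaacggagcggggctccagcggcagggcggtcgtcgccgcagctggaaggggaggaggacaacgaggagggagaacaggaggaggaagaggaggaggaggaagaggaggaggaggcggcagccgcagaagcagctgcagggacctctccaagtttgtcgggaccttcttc
Adarb2 promoter, chr13:8202616-8202865, plus strand: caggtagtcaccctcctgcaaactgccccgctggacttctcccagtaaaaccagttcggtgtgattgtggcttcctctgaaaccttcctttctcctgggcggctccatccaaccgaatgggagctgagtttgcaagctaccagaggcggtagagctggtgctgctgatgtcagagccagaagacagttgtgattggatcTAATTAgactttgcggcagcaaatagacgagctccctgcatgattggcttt
Dlx6os1 promoter, chr6:6869534-6869783, minus strand: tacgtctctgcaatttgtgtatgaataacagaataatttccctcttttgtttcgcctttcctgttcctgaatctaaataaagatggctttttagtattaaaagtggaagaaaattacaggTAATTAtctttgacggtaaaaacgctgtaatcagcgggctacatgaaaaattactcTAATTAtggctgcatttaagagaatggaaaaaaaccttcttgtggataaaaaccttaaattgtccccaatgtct
Erbb4 promoter, chr1:69108060-69108309, minus strand: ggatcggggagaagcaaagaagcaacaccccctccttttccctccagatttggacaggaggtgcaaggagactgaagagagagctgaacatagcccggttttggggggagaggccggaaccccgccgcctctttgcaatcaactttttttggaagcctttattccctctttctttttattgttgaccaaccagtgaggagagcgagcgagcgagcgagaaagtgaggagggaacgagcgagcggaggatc
RefSeq entries were matched for 9 of the 10 members, with 22 start sites, and Maf had no entry. TAATTA was found in 3 of the 22 windows, 2 of Dlx6os1 and 1 of Adarb2, and in 4.84% of 32851 promoters of the same length. TGANTCA was in 1 of the 22, the Lhx6 window above, and in 6.75% of all promoters, while TGACGTCA was in 0 of the 22 and in 1.55% of all. A match is a description of letters and was not tested as a site.

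The first comparison was between inhibitory and excitatory nuclei. UMIs were summed per library and label, and the mean of the 4 inhibitory labels was set against the mean of 6 excitatory labels (L2/3 IT, L4/5 IT, L5 ET, L5 IT, L6 IT and L6 CT) with edgeR's quasi-likelihood test, adjusted over 8255 genes by Benjamini-Hochberg, with a threshold of 0.05. Of the 10 members, 7 were higher in inhibitory nuclei (Maf, Nxph1, Dlx1, Dlx6os1, Erbb4, Adarb2 and Prox1), Satb1 did not pass, and Lhx6 and Sox6 had no usable test in this form. Over all genes tested, 21.8% were called, made up of 9.49% higher and 12.3% lower in inhibitory nuclei. For Adarb2 and Prox1 the higher mean came from the Vip and Lamp5 labels. Pvalb and Sst sums ran from 8.78 to 11.3 CPM of Adarb2 and from 0 to 2.51 CPM of Prox1. These lay inside the excitatory ranges of 6.36 to 139 CPM and 0 to 9.56 CPM. The members were chosen by name as interneuron genes and the labels were set from the same counts. A members' count above the background share is therefore no separate result. The median log2 fold change of the 10 members was 4.25 against -0.06 over all genes, and 4.53 against -0.03 with the nuclei of each class pooled per library. Lhx6 and Sox6 were at 0 in the Lamp5 label, and in this comparison the SE of their fitted difference exceeded 5 log2 units, so it was not used. With classes pooled, Lhx6 was higher by 7.05 on the log2 scale (adjusted p = 1.42e-05) and Sox6 by 4.90 (adjusted p = 1.78e-07). DESeq2 also called both (adjusted p = 0.000142 and 0.000624).

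**Figure D1:**
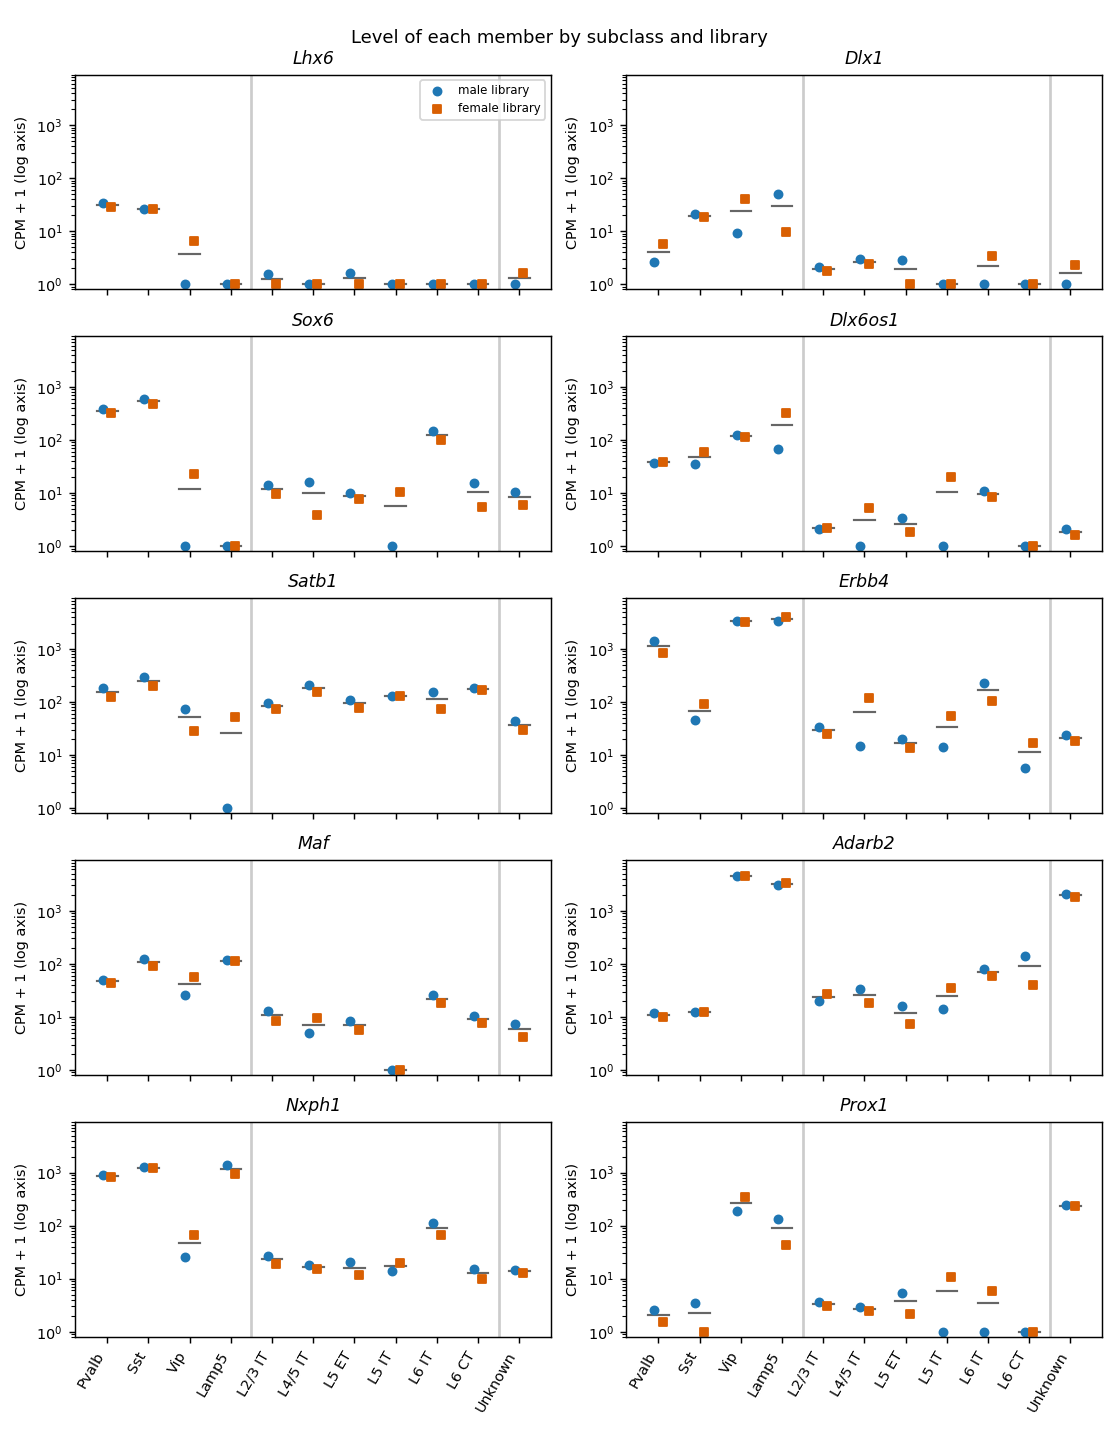
CPM + 1 on a log axis for each member in the 4 inhibitory labels, the 6 excitatory labels and the Unknown nuclei. Circles are the male library, squares the female library, and bars the mean of both. Lhx6 and Sox6 stood high in Pvalb and Sst, Adarb2 in Vip, Lamp5 and Unknown, and Satb1 in both neuron classes.

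Lhx6, the factor of the MGE lineage, was highest in the Pvalb and Sst labels, with 132 UMIs there. It was at 33.1 and 27.9 CPM (male and female library) in Pvalb nuclei and at 25.1 and 25.7 CPM in Sst nuclei. The ranges of these labels did not overlap, as for 45.5% of all genes, and the difference did not pass (log2 fold change 0.23, SE 0.47, adjusted p = 0.925). In Vip nuclei 1 UMI was found in the female library (5.56 CPM) and 0 in the male library, in Lamp5 nuclei 0 in both, and in the excitatory labels 2 UMIs in all. Between both MGE labels (132 UMIs) and both CGE labels (1 UMI), the ratio of CPM was 13.2, with an exact 95% interval from 2.33 to 526 that covers counting error only. The fitted difference was 5.37 (SE 1.38, adjusted p = 0.0134), a size that depends on the prior count, and the call was lost with DESeq2 (adjusted p = 0.105), with Vip as the CGE label alone (0.0969) and in nuclei whose cluster was led by their own label (0.0730). Lhx6 was captured sparsely even where it was highest. An Lhx6 UMI was seen in 16 of 119 Pvalb nuclei of the male library (13.4%, exact 95% interval from 7.88% to 20.9%) and in 42 of 150 of the female library (interval from 21.0% to 35.9%), and after thinning each nucleus to 2300 UMIs in 9.43% and 6.12%.

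Sox6, a SoxD factor downstream of Lhx6, was high in the same labels. Its level was 595 and 469 CPM in Sst nuclei and 389 and 323 CPM in Pvalb nuclei. It was at 0 and 22.2 CPM in Vip nuclei and at 0 in both libraries in Lamp5 nuclei, where the limit of 3 counts over both libraries is 16.8 CPM, so Sox6 was at least 20.1-fold higher in Pvalb and at least 30.5-fold higher in Sst than in Lamp5 nuclei. The MGE labels exceeded the CGE labels by 8.35 (SE 0.60, adjusted p = 6.07e-10) in the fit and by 5.85 (adjusted p = 2.49e-06) with classes pooled. After thinning, a Sox6 UMI was seen in 52.4% to 61.2% of Pvalb and Sst nuclei and in 0% to 3.85% of Vip and Lamp5 nuclei.

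Satb1, a chromatin organiser, was the member that did not separate the neuron classes. It was at 288 and 197 CPM in Sst nuclei and 181 and 123 CPM in Pvalb nuclei, while the excitatory labels ran from 71.5 to 209 CPM. Vip nuclei had 73.0 and 27.8 CPM and Lamp5 nuclei 0 and 50.9 CPM, below every Pvalb and Sst sum. Satb1 was therefore higher in the MGE than the CGE labels (log2 fold change 2.37, SE 0.35, adjusted p = 3.65e-05). Against excitatory nuclei the mean of labels gave -0.46 (SE 0.22, adjusted p = 0.157), whereas pooled classes, in which most inhibitory nuclei are Pvalb or Sst, gave 0.91 (adjusted p = 0.00682), so the sign depended on how labels were weighted. Without the deepest 5% of nuclei the mean of labels was -0.90 (adjusted p = 0.0425).

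Maf, a bZIP factor of MGE interneurons, was not restricted to MGE labels. Its level was 122 and 91.8 CPM in Sst, 116 and 110 CPM in Lamp5, 48.9 and 42.3 CPM in Pvalb and 24.3 and 55.6 CPM in Vip nuclei, against 0 to 25.1 CPM in the excitatory labels. Inhibitory nuclei were higher by 3.97 (SE 0.31, adjusted p = 7.51e-10), but MGE and CGE labels were not separated (0.11, SE 0.29, adjusted p = 0.910). Between the MGE labels, Maf was lower in Pvalb than in Sst (log2 fold change -1.23, SE 0.27, adjusted p = 0.00318), a call that was lost without the deepest 5% of nuclei (-0.91, adjusted p = 0.0767). Microglia, which were abundant in the sort, had 298 and 295 CPM of Maf. The summed level of 8 microglial markers was 431 and 744 CPM in inhibitory nuclei and 500 and 941 CPM in excitatory nuclei, all 8 having UMIs in both, against 5603 and 5756 CPM in microglia. In Sst nuclei, with more Maf, the sum was 449.7 and 788 CPM, above the 419 and 663 CPM in Pvalb nuclei. Uncalled barcodes with few UMIs, a measure of free RNA, had 64.2 and 91.3 CPM of Maf, above every Pvalb and Vip sum. The part of microglial and free RNA in the Maf levels was not tested.

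Nxph1, the neurexin ligand, reached its highest levels in Sst (1259 and 1202 CPM), Lamp5 (1415 and 949 CPM) and Pvalb nuclei (918 and 815 CPM). Vip nuclei had 24.3 and 66.7 CPM, inside the excitatory range of 8.98 to 110 CPM. Nxph1 was the only member called between the CGE labels. It was lower in Vip than in Lamp5 by 4.45 on the log2 scale (log2 fold change -4.45, SE 0.36, adjusted p = 1.95e-08), in a comparison that called 2.1% of genes, 0.884% higher and 1.21% lower in Vip. It exceeded excitatory nuclei by 4.60 (SE 0.24, adjusted p = 1.84e-13) and was higher in MGE than CGE labels by 2.24 (SE 0.21, adjusted p = 4.59e-08), although Lamp5 nuclei lay at the level of the MGE labels.

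Adarb2, a brain-specific relative of the RNA-editing ADAR enzymes, marked the CGE labels. It was at 4559.9 and 4567 CPM in Vip nuclei and 3095 and 3298 CPM in Lamp5 nuclei, against 8.78 to 11.3 CPM in Pvalb and Sst nuclei. The difference between MGE and CGE labels was -8.37 (SE 0.32, adjusted p = 2.62e-15), and every one of the 61 Vip and 27 Lamp5 nuclei had an Adarb2 UMI. In the excitatory labels, Adarb2 ran from 6.36 to 139 CPM, with the highest value in the L6 CT label of the male library. Uncalled barcodes with 1 to 100 UMIs, a measure of free RNA, had 197 and 248 CPM, above all Pvalb, Sst and excitatory sums.

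Prox1, the homeodomain factor of the CGE lineage, was at 187 and 350 CPM in Vip and 133 and 42.4 CPM in Lamp5 nuclei. Pvalb and Sst nuclei had 0 to 2.51 CPM, and the difference between MGE and CGE labels was -7.06 (SE 0.69, adjusted p = 9.21e-08). Against the excitatory labels, which ran from 0 to 9.56 CPM, inhibitory nuclei were higher by 2.74 (SE 0.84, adjusted p = 0.0193), and the call was lost without the deepest nuclei (adjusted p = 0.0955) and in own-cluster nuclei (0.0819), a setting that also drops the Lamp5, L4/5 IT and L5 IT labels. Vip exceeded Lamp5 by 1.94 (SE 0.61, adjusted p = 0.126), which became a call with library as a block (1.97, adjusted p = 0.0466), a fit that called 2.8% of genes, 1.33% higher in Vip.

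Of the members shared by GABAergic lineages, Dlx6os1 separated inhibitory from excitatory labels without overlap, which 1.41% of all genes did. It ran from 33.9 to 322 CPM over the 8 inhibitory sums and from 0 to 19.1 CPM over the 12 excitatory sums, a difference of 5.31 (SE 0.37, adjusted p = 8.85e-11). Vip nuclei had 122 and 111 CPM and Lamp5 nuclei 66.6 and 322 CPM, above Sst (33.9 and 59.1 CPM) and Pvalb nuclei (36.3 and 37.7 CPM). The MGE labels were lower by 1.79 on the log2 scale (log2 fold change -1.79, SE 0.35, adjusted p = 0.000993), which did not pass against Vip alone (-1.37, adjusted p = 0.0625). Dlx1 was sparse, with 49.9 and 8.48 CPM in Lamp5, 8.11 and 38.9 CPM in Vip, 20.1 and 17.4 CPM in Sst and 1.58 and 4.65 CPM in Pvalb nuclei. It was higher in inhibitory nuclei by 4.57 (SE 0.81, adjusted p = 0.000167) and did not pass between MGE and CGE labels (-1.40, SE 0.75, adjusted p = 0.276).

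Erbb4, the neuregulin receptor, divided the MGE labels. It was at 3295 and 4009.8 CPM in Lamp5, 3399.6 and 3206 CPM in Vip and 1402 and 846 CPM in Pvalb nuclei, but at 44.0 and 89.7 CPM in Sst nuclei, inside the excitatory range of 4.78 to 231 CPM. Pvalb exceeded Sst by 3.99 (SE 0.50, adjusted p = 3.60e-06), and after thinning an Erbb4 UMI was seen in 73.6% and 68.7% of Pvalb but 4.65% and 5.71% of Sst nuclei. The share in Sst nuclei was near that in excitatory nuclei (4.08% and 5.71%) and below that in microglia (9.28% and 12.4%). Inhibitory nuclei as a whole were higher than excitatory nuclei by 4.79 (SE 0.25, adjusted p = 1.81e-13), and MGE labels lower than CGE labels (-3.52, SE 0.34, adjusted p = 5.69e-08).

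**Figure D2:**
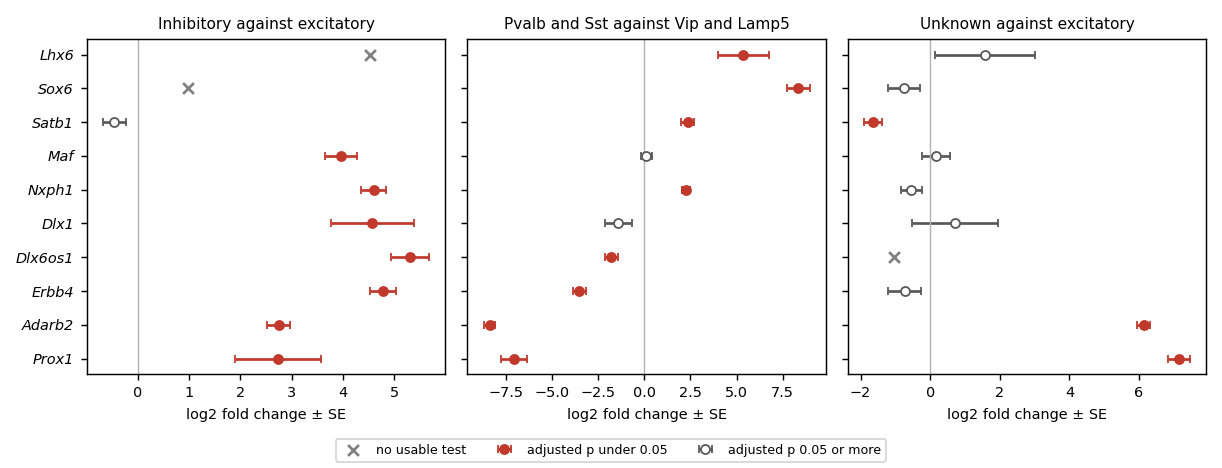
Fitted log2 fold change ± SE of each member for inhibitory against excitatory labels, MGE labels (Pvalb and Sst) against CGE labels (Vip and Lamp5), and Unknown nuclei against excitatory labels. Filled red points passed an adjusted p of 0.05, open points did not, and crosses are values without a usable test. Members fell on both sides of 0 in the middle panel, from -8.37 for Adarb2 to 8.35 for Sox6, the latter a size that depends on the prior count.

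Over the MGE and CGE comparison, 4 members were called higher (Lhx6, Sox6, Satb1 and Nxph1) and 4 lower (Dlx6os1, Erbb4, Adarb2 and Prox1), where 11.2% of all 8255 genes were called, 6.4% higher and 4.81% lower. The groups did not overlap in CPM for Lhx6, Sox6, Satb1, Dlx6os1, Erbb4, Adarb2 and Prox1, against 12.2% of all genes. Between Pvalb and Sst, 1 member was called higher and 1 lower, against 7.92% of all genes, 4.11% higher and 3.82% lower. With library as a block, the paired form of the test, a further 4 were lower in Pvalb, and 11.8% of all genes were called, 5.67% lower. These were Sox6 (-0.57, adjusted p = 0.00740), Satb1 (-0.68, adjusted p = 0.00381), Nxph1 (-0.52, adjusted p = 0.0349) and Dlx1 (-2.23, adjusted p = 0.0237), each lower in Pvalb in both libraries. Dlx1 was also called with no filter on low counts (-2.23, adjusted p = 0.0133).

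Genes related to the members were taken from a list of 41, of which 23 passed the filter on low counts in these comparisons. Between inhibitory and excitatory nuclei, 10 were higher and 4 lower. The GABA synthesis genes Gad2 (6.28) and Gad1 (5.97), and Reln (2.52), rose in inhibitory nuclei, as did the neurexin Nrxn3 (1.34). The Erbb4 ligand Nrg1 was lower (-1.33). Between MGE and CGE labels, 4 were higher and 5 lower. The nuclear receptors Nr2f2 (-5.03) and Nr2f1 (-2.62), known from the caudal eminence, and the cannabinoid receptor Cnr1 (-2.72) were lower in the MGE labels, and Nrg1 (0.76) and the editing enzyme Adarb1 (0.75) were higher. Between Pvalb and Sst, 2 were higher and 4 lower, with Reln (-5.41) and Elfn1 (-4.59) higher in Sst and the Sox6 relative Sox5 (2.98) higher in Pvalb. Between Vip and Lamp5, 2 were lower, Reln (-3.53) and Sox5 (-1.47). All values are log2 fold changes with an adjusted p under the threshold.

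Over the 20 sums, the genes whose log2(CPM + 1) was most like that of each lineage marker were named as a description, since these sums share libraries and depth. For Lhx6 they were Lrrc38 (Pearson r = 0.847), Ssh1, Crtc3, Snph and Ttll7 (0.799). For Adarb2 they were Prox1os (0.910), the antisense partner of Prox1, then the receptor genes Kit (0.889) and Egfr (0.886), Dhx30 and Rgs12 (0.842). For Dlx6os1 they included Gad2 (0.947), Kcnip1 (0.934), Ubash3b and Dner (0.898). Among the members themselves, Dlx6os1 with Erbb4 (0.892), Adarb2 with Prox1 (0.860) and Lhx6 with Sox6 (0.773) were among the more alike pairs, as was Maf with Nxph1 (0.837).

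**Figure D3:**
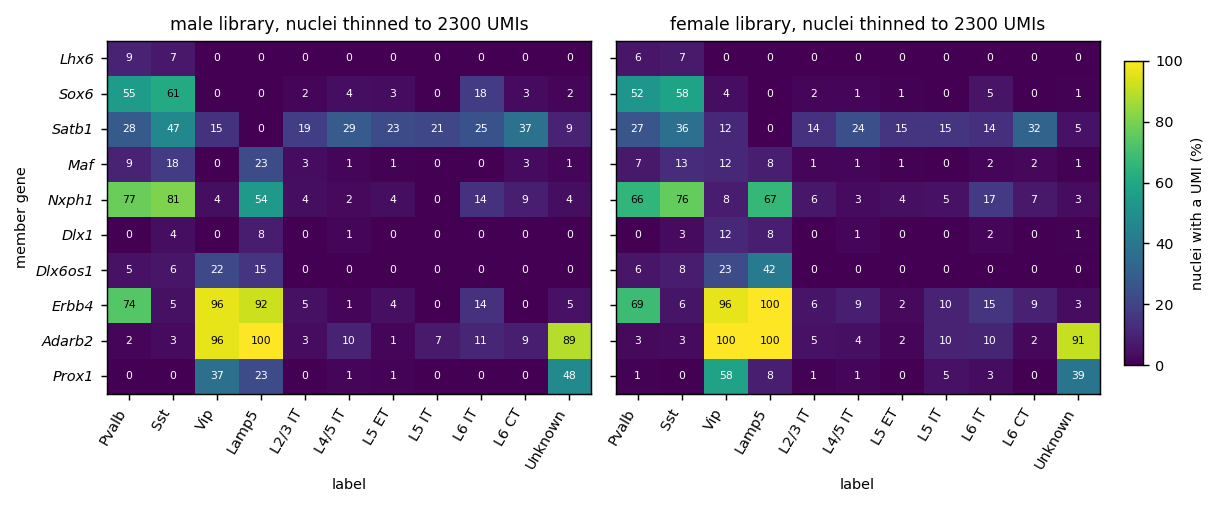
Percent of nuclei with at least 1 UMI of each member after every nucleus was thinned to 2300 UMIs, by label, for the male library (left) and the female library (right). Adarb2 was seen in 88.8% and 91.3% of Unknown nuclei, and Erbb4 in 92.3% to 100% of Vip and Lamp5 but 4.65% and 5.71% of Sst nuclei.

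Members of the MGE and CGE lineages were also counted together in single nuclei. Of 346 inhibitory nuclei of the male library (Sncg included), 29 had UMIs of both Lhx6 and Sox6 and 1 had both Lhx6 and Adarb2. These are 8.38% and 0.289% of nuclei, where the products of the separate shares are 6.49% and 2.02%. In the female library, of 339 nuclei, 63 had both Lhx6 and Sox6 and 13 had both Lhx6 and Adarb2. These are 18.6% and 3.83%, where the products are 15.9% and 4.89%. These shares pool labels that differ in all 3 genes, so they describe the mix of labels. Within Pvalb nuclei, Lhx6 with Adarb2 was at 0.840% and 5.33% (male and female library), where the products are 0.791% and 2.99%. Within Sst nuclei it was at 0% and 2.80%, where the products are 0.565% and 2.27%. After thinning, inhibitory nuclei had a mean of 2.51 and 2.38 of the 10 members, excitatory nuclei 0.412 and 0.373, and Unknown nuclei 1.58 and 1.43. Thinning left out 67 and 7 inhibitory, 321 and 110 excitatory and 65 and 10 Unknown nuclei. Before thinning the means were 3.16 and 4.04, 0.691 and 0.928, and 1.80 and 2.24.

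Among the 6 excitatory labels tested, L6 IT had the highest mean of Sox6, Nxph1, Erbb4 and Maf. In the 188 L6 IT nuclei, Sox6 was at 146 and 99.9 CPM, Erbb4 at 231 and 102 CPM and Nxph1 at 110 and 65.8 CPM. Of these nuclei, 40 lay in clusters led by the L6 IT label, 103 in clusters led by another excitatory label and 45 in clusters led by an inhibitory label. In the last of these, Sox6 was at 385 and 281 CPM, Erbb4 at 749.5 and 457.5 CPM, and Gad1 at 235 and 88.0 CPM. In the clusters led by another excitatory label, Sox6 was at 138 and 144 CPM and Erbb4 at 138 and 75.1 CPM, with Gad1 at 30.6 and 6.26 CPM. In the clusters led by L6 IT itself, Sox6 was at 22.9 and 10.3 CPM, Erbb4 at 22.9 and 20.6 CPM, and Gad1 at 0 in both. L6 IT nuclei were the shallowest of these 10 labels, with medians of 1800.0 and 2708 UMIs, and had the highest summed microglial markers among them in both libraries (823 and 1554 CPM). Other marker sums of L6 IT nuclei were also above those of all excitatory nuclei. Astrocyte markers were at 70.3 and 39.0 CPM against 16.7 and 17.4 CPM, and oligodendrocyte markers at 120 and 80.4 CPM against 89.9 and 78.2 CPM. Those of oligodendrocyte precursors were at 25.1 and 12.2 CPM against 2.90 and 2.45 CPM. Endothelial markers were at 65.3 and 26.8 CPM against 9.15 and 11.2 CPM. The part of mixed labels, depth or RNA of other cells in these values was not tested.

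Unknown nuclei were high in the CGE pair of members, Adarb2 and Prox1. Adarb2 was at 2102 and 1799 CPM and Prox1 at 239 and 235 CPM, values that lay between Lamp5 and the excitatory labels for Adarb2 and inside the range of Vip for Prox1. Against the excitatory labels, Adarb2 was higher by 6.13 (SE 0.20, adjusted p = 3.45e-18) and Prox1 by 7.16 (SE 0.31, adjusted p = 1.67e-15), and Satb1 was lower (-1.65, SE 0.25, adjusted p = 5.69e-06). This comparison called 36.8% of 8980 genes, 19.8% higher and 17.0% lower, so 3 of 10 members is near the background share. How many genes had differences as large as those of Adarb2 and Prox1 was not counted. Prox1 was at 0 in L6 CT nuclei, so the size of its difference depends on the prior count. With classes pooled, the differences were 6.54 for Adarb2 and 6.82 for Prox1. Of 225 Unknown nuclei of the male library, 206 had an Adarb2 UMI, 120 a Prox1 UMI and 114 both. In the female library the counts were 164, 123 and 119 of 170. Markers of astrocytes and oligodendrocytes were also higher here, whereas those of other glia were not. Summed over 8 microglial markers, Unknown nuclei had 466 and 819 CPM against 500 and 941 CPM in excitatory nuclei. Markers of oligodendrocyte precursors were at 2.13 and 1.26 CPM against 2.90 and 2.45 CPM. Summed over 4 astrocyte markers, Unknown nuclei had 91.5 and 77.6 CPM against 16.7 and 17.4 CPM in excitatory nuclei, nearly all of it from the glutamate transporter Slc1a3 (88.3 and 75.7 CPM), with Aqp4 at 0 in the male and Gfap at 0 in the female library. Summed over 4 oligodendrocyte markers, they had 140 and 168 CPM against 89.9 and 78.2 CPM, with Mog at 0 in the male and Mag at 0 in the female library. The part of glial RNA in the Adarb2 and Prox1 levels was not tested.

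Against the inhibitory labels, 2 members were higher in Unknown nuclei (Adarb2 by 3.39, adjusted p = 2.12e-12, and Prox1 by 4.42, adjusted p = 1.27e-11) and 6 lower, where 33.9% of genes were called, 19.8% higher and 14.1% lower, so the count of higher members lay at the background share. The average includes Pvalb and Sst, which nearly lack both genes. With classes pooled, the differences were 2.29 for Adarb2 and 3.59 for Prox1, and Adarb2 was higher in Vip and Lamp5 than in Unknown nuclei in both libraries. The lower members were Dlx6os1 (-6.36), Erbb4 (-5.52), Nxph1 (-5.14), Dlx1 (-3.87), Maf (-3.81) and Satb1 (-1.19), of which Satb1 was not called without the deepest nuclei (-0.50, adjusted p = 0.523) and had the opposite sign in the male library alone (0.39). Lhx6 and Sox6 had no usable test in this form and were lower with classes pooled (-5.85, adjusted p = 0.000129, and -5.84, adjusted p = 6.25e-08). Dlx6os1 was found as 1 UMI in each library and Lhx6 as 1 UMI in all.

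Other genes were compared in Unknown nuclei as well. Slc17a7, the vesicular glutamate transporter of excitatory neurons, was at 222 and 137 CPM, above the 58.0 and 26.9 CPM of all excitatory nuclei, while Gad1 was at 22.3 and 39.1 CPM and Gad2 at 16.0 and 13.2 CPM, below every inhibitory sum. Of 24 related genes tested against the inhibitory labels, 4 were higher and 14 lower, with Gad2 (-4.69) and Reln (-4.48) lower and Nrg2 (2.34) and Nrg1 (1.87), ligands of Erbb4, higher. Against the excitatory labels 5 were higher and 9 lower, with Gad1 (3.47), Nrg2 (3.06) and Gad2 (1.59) higher and Sox5 (-4.30) lower. Both deposited clusters that make up the Unknown nuclei had the pair. Cluster 7 had Adarb2 at 2149.8 and 1845 CPM and Prox1 at 244 and 239 CPM, and the shallower cluster 23 had Adarb2 at 1079 and 942 CPM and Prox1 at 144 and 149 CPM. In uncalled barcodes Prox1 had 9 and 23 UMIs of 482960 and 919800.

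The last comparison asked whether members differed with Atf3 itself, within a label. Inhibitory nuclei with an Atf3 UMI were set against those without in the same library and label, in 6 pairs of sums (Pvalb, Sst and Vip in each library), since Lamp5 had too few nuclei. Erbb4 was lower with Atf3 in all 6 pairs. In Pvalb nuclei it was at 688 CPM with and 2703 CPM without Atf3 in the male library, and at 718 and 2249 CPM in the female library. In Vip nuclei it was at 2347 and 4065 CPM in the male and 2573 and 4228 CPM in the female library, and in Sst nuclei at 35.3 and 49.6 CPM and at 56.4 and 152 CPM. The difference was -1.24 (SE 0.18, adjusted p = 0.00436). Of the 6 members that passed the filter, Erbb4 and Dlx6os1 were called, where 0.624% of 3844 genes were called, 0.052% higher and 0.572% lower, and 22 of the 24 called genes were lower. The male library alone gave -1.29 (adjusted p = 0.213) and 0 calls over all genes with edgeR's quasi-likelihood test, and the female library alone -1.18 (adjusted p = 0.0460).

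Dlx6os1 was also lower with Atf3 in all 6 pairs (-1.46, SE 0.25, adjusted p = 0.00979). In Pvalb nuclei it was at 24.4 CPM with and 57.9 CPM without Atf3 in the male library and at 27.6 and 148 CPM in the female library. In Sst nuclei the values were 19.2 and 43.4 CPM and 39.4 and 96.3 CPM, and in Vip nuclei 105 and 132 CPM and 72.0 and 174 CPM. Maf (-0.94, SE 0.30, adjusted p = 0.248), Nxph1 (-0.40), Satb1 (-0.37) and Sox6 (-0.36) did not pass, and Lhx6, Dlx1, Adarb2 and Prox1 were under the filter on low counts. Adarb2 in Vip nuclei was at 3332 CPM with and 5336 CPM without Atf3 in the male and at 4075 and 5362 CPM in the female library, untested. The call of Dlx6os1 was lost without library as a block (-1.31, adjusted p = 0.0610), in the male library alone (-0.97, adjusted p = 1.0) and in the female library alone (-1.65, adjusted p = 0.0536). Of the 14 related genes tested, 0 were called by edgeR's quasi-likelihood test and 3 had an unadjusted p under the threshold.

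**Figure D4:**
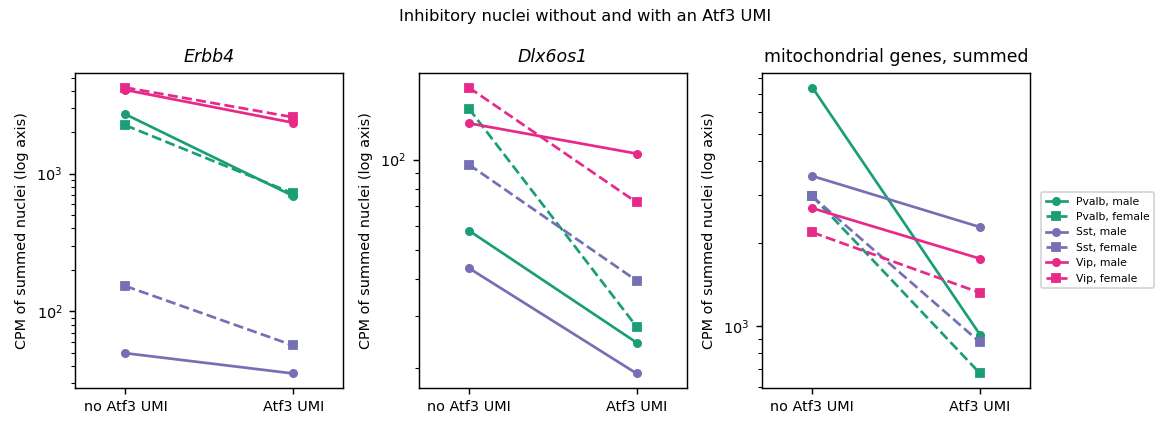
CPM of Erbb4, Dlx6os1 and summed mitochondrial genes in inhibitory nuclei without and with an Atf3 UMI, on log axes, 1 line for each label and library. All 6 lines fell in each panel, for Erbb4 from 2703 to 688 CPM in Pvalb nuclei of the male library.

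Nuclei with and without an Atf3 UMI differed in more than these genes. Those with Atf3 were deeper, with medians of 12500.0 against 7651 UMIs in Pvalb nuclei of the female library and 4836 against 3438 in the male library. Summed mitochondrial genes were lower with Atf3 in 6 of 6 pairs, from 7388 to 930 CPM in male and from 2971 to 673 CPM in female Pvalb nuclei, and 9 of the 24 called genes were mitochondrial. Microglial markers (Inpp5d left out here) had no common direction and were lower with Atf3 in 4 of 6 pairs. In Vip nuclei they were at 461 CPM with and 318 CPM without Atf3 in the male library, and at 1089 and 1264 CPM in the female library. Male Sst nuclei, counted among the lower pairs, had 439.5 and 439.8 CPM. Thinning to 2300 UMIs left Pvalb and Sst sums, and Atf3 status was set anew from the thinned counts, so some nuclei changed group. Pvalb nuclei of the female library numbered 129 with and 21 without Atf3 before thinning, and 85 and 62 after. In this new split Erbb4 was lower with Atf3 (-0.81, adjusted p = 0.0428) and Dlx6os1 had too few UMIs to be tested. In Pvalb nuclei alone both were called (Erbb4 -1.78, adjusted p = 3.83e-09, and Dlx6os1 -2.01, adjusted p = 0.00307), and in Sst nuclei alone neither was (-1.12, adjusted p = 0.178, and -1.20, adjusted p = 0.192). Whether the change differed between labels, and the part of depth and mitochondrial RNA in it, was not tested.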

How the data were processed

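Nuclei of 2 libraries (GFP+/DRAQ5+ sorted, 10x 3′) were analysed. The deposited counts are raw UMIs per gene and nucleus, for which the authors used CellRanger and a pre-mRNA form of GRCm38. The male library's file header names version 7.0.1, the female library's 7.0.0, and the submitters' processing notes 3.1.0. Whether counting used strand is not given in the sources used here. Labels, clusters and the percent of mitochondrial UMIs came from the table deposited by the authors, in which 3 further columns (a project name and normalized totals) were not used.

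UMIs were summed per label and library, giving 20 sums (8255 genes after filterByExpr) or 22 sums with Unknown nuclei (8980 genes), and tested with edgeR 4.0.16 (TMM, quasi-likelihood test) in R 4.3.3, with DESeq2 1.42.0 as an alternative. Biological coefficients of variation were 0.174, 0.172 and, for the 12 sums of the Atf3 comparison (3844 genes, library and label as terms, at least 10 nuclei per sum), 0.150. Shares have exact Clopper-Pearson 95% intervals in which only counting error enters, as in limits of 3 counts, and were thinned to 2300 UMIs (seed 1). Sums were computed with Python 3.11.15 and scipy 1.17.1, and scripts were tested on simulated data. Labels of 1 library come from the same pool, and their deviations correlated in all 45 pairs of labels (r from 0.0233 to 0.504, median 0.132), with library as a block as an alternative. A comparison in which a label was at 0 and the SE exceeded 5 log2 units was taken as having no usable test. All members were named, and the 5 genes most like a member were ranked by Pearson r. Some genes of these lists are not reported here. Members, gene lists and tests were chosen with earlier results of these data known. Alternatives were RLE size factors, no filter on low counts, each library left out, limits of the study's methods (at most 6000 genes and 5% mitochondrial UMIs), the deepest 5% left out and own-cluster nuclei. Leaving out the 20% of nuclei richest in microglial UMIs and pooling classes were chosen after seeing the data.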

Additional observations from a re-analysis of the deposited data

Results flagged for a closer look

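Several members were high in nuclei outside the comparisons, in both libraries above the level in uncalled barcodes. These are means of 2 libraries. Sox6 was at 849 CPM in astrocytes and 387 CPM in oligodendrocytes. Erbb4 was at 1731 CPM and Prox1 at 341 CPM in oligodendrocytes. In microglia Maf was at 296 CPM and Prox1 at 33.5 CPM. In the 4 (male) and 7 (female) nuclei labelled Sncg, Adarb2 was at 19983 CPM, Erbb4 at 2559.8 CPM, Dlx6os1 at 1125 CPM, Maf at 257 CPM, Prox1 at 108 CPM and Dlx1 at 56.5 CPM.

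Some members moved in opposite directions in the male and female library by at least 0.5 on the log2 scale in each, on few UMIs, and these differences between libraries were not tested. Between Vip and Lamp5, the log2 fold change of Satb1 was 7.13 for males and -0.78 for females, that of Dlx1 was -2.40 and 2.21, and that of Dlx6os1 was 1.01 and -1.45. Satb1 had 0 UMIs in male Lamp5 nuclei, so the size of its value there is set by the prior of 0.5 CPM. Between Pvalb and Sst, that of Prox1 was -0.60 and 1.12, on 2 UMIs in each label. Between Unknown and excitatory nuclei, that of Dlx1 was -1.06 and 0.98, on 2 UMIs in Unknown nuclei.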

How the results depend on the processing

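Of 31 called member results, 24 kept direction and call in every alternative tested and 7 did not. Over 689 member values under an alternative, 586 kept both, 14 lost and 23 gained the call, 16 changed sign, and 50 untested values moved by more than the spread. The cause was not tested. The count of members lower in inhibitory nuclei was 1 without the deepest nuclei. Between Pvalb and Sst, members lower numbered 2 with no filter on low counts, 5 with the library block and 0 without the deepest nuclei. Between Vip and Lamp5, members higher numbered 1 with no filter and 1 with the block, and members lower 2 without the nuclei richest in microglial UMIs, where Maf was added (-2.76, adjusted p = 0.0150). Members lower in Unknown than excitatory nuclei numbered 3 with classes pooled. In the Atf3 comparison, genes called numbered 77 with no filter, 11 in thinned nuclei, 113 in Pvalb alone, 13 in Sst alone and 0 to 23 with a library left out. Its members lower numbered 1 without the replicate block, 1 in thinned nuclei, 0 in Sst alone and 0 to 1 with a library left out.

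These signs changed. Satb1 between inhibitory and excitatory nuclei was 0.20 in own-cluster nuclei and 0.91 with classes pooled. Maf between MGE and CGE labels was -0.040 under the limits of the methods and -0.062 without the deepest nuclei. Between Unknown and excitatory nuclei, DESeq2 gave -0.072 for Lhx6, -0.44 for Maf and -0.41 for Dlx1. Own-cluster nuclei gave 0.078 for Sox6, -0.56 for Maf, 0.19 for Nxph1, 2.16 for Dlx6os1 and 0.36 for Erbb4, and Maf was -0.28 without the nuclei richest in microglial UMIs and -0.69 with classes pooled. Satb1 between Unknown and inhibitory nuclei ran from -1.22 to 0.39 with a library left out, and with Atf3 it was 0.23 in thinned nuclei.

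Of 220 shares, 100 left their counting interval after thinning. Leaving out every nucleus with a microglial UMI was not run, since 383 of 1603 male and 29 of 1372 female nuclei would remain. Own-cluster nuclei held no Lamp5, L4/5 IT or L5 IT label, so averages over labels changed in their labels too, and Vip and Lamp5 were not compared there.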
